A study of Mus musculus with 4 samples.

Results

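Cadherins and protocadherins were followed in day 1 tumours of AXT cells, a mouse osteosarcoma line made by overexpressing c-MYC in bone marrow stromal cells that lack Ink4a/Arf, which both groups share. The members were the protein-coding genes of the deposited table whose symbol is Cdh, Pcdh or Fat with a number, or a numbered gene of the alpha, beta or gamma protocadherin clusters. They came to 93 of 55487 genes. The symbol Pcdha11 stood on 2 gene IDs, so there were 92 symbols.

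The study set tumours with and without HIF-1alpha side by side, a transcription factor subunit that is stabilised when oxygen is scarce and whose gene is Hif1a. The mock group was 1 tumour library of Mock AXT cells, wild type for HIF-1alpha. The knockout group was 3 tumour libraries of the lines HIF-1alphaKO AXT1-1, AXT1-2 and AXT2. Cells of both groups were grown in IMDM, placed in matrigel, injected into C57BL/6scid mice, which lack lymphocytes of their own, and taken out after 1 day as poly(A) RNA. The knockout columns of the table are named c11, c15 and c22, and which line each one holds is not given in the sources used here. Whether a line is a single clone, and the age of the mice, are not given there either.

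Cadherins are membrane proteins whose extracellular repeats bind calcium and hold neighbouring cells together. Classical cadherins bind catenins inside the cell and so reach the actin skeleton, and Cdh2 and Cdh11 are the classical cadherins best known from osteoblasts. In the clustered protocadherins each gene has its own promoter and first exon, which is joined, in the alpha and gamma clusters, to constant exons shared by the cluster. Single neurons are known to use only a few of these genes each, while the C-type genes are used more evenly. Fat cadherins are giant members of the family, and Fat4 pairs with Dchs1 in planar polarity.

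Total counts ran from 12383719 in mock to 13193264 in c15, so a count of 0 allowed a level of up to 0.242 CPM (a gene's share of its library's total count, times 1000000) in mock and 0.227 to 0.232 CPM in the others, counting error alone. Hif1a itself was at 107 CPM in mock, against 104 (c11), 98.7 (c15) and 22.3 CPM (c22). A gene-level count does not show whether the protein was intact, so these values leave the labels of 2 knockout libraries, c11 and c15, unchecked. The osteoblast factors Runx2 and Sp7 were present in every library and highest in mock, Runx2 at 245 CPM against 116 to 139 CPM and Sp7 at 177 CPM against 65.6 to 144 CPM. Markers of several host cell types were higher in mock in sum. Skeletal muscle was at 110 CPM against 1.97 to 37.0 CPM and erythroid cells at 116 CPM against 1.63 to 41.1 CPM. Macrophages were at 768 CPM against 235 to 410 CPM, and endothelium at 28.9 CPM against 8.71 to 20.8 CPM. Schwann and neural markers were not highest in mock, at 11.2 CPM there, against 13.4 (c11), 31.8 (c15) and 8.41 CPM (c22). Markers with a mean of at least 1 CPM were then compared with mock. Below it in all 3 knockout libraries lay 7 of 8 muscle, 5 of 5 erythroid, 6 of 7 macrophage and 2 of 3 endothelial markers. So did 4 of 9 osteoblast, 2 of 6 fibroblast and 0 of 2 Schwann and neural markers, and 21.5% of all genes at that level. Of the osteoblast markers 1, Col1a1, lay above mock in all 3 (background 21.3%). Pax7 and Myod1 of muscle and Tie1 and Esam of endothelium were at 0 counts in all 4 libraries. In such bulk tumours fewer cells of a type and less RNA per cell cannot be told apart.

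Of the 93 members, 23 had a mean of at least 1 CPM over the 4 libraries. Another 48 had at least 1 count but a lower mean, and 22 had no count in any library. Just inside the limit of 1 CPM lay Pcdhb15 with a mean of 1.03 CPM and Cdh10 with 1.28 CPM. Just outside lay Pcdh15 with 0.963 CPM, Pcdh20 with 0.922 CPM and Cdh15 with 0.902 CPM. Of the 23 members, 14 belonged to the protocadherin clusters of chromosome 18.

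**Figure D1:**
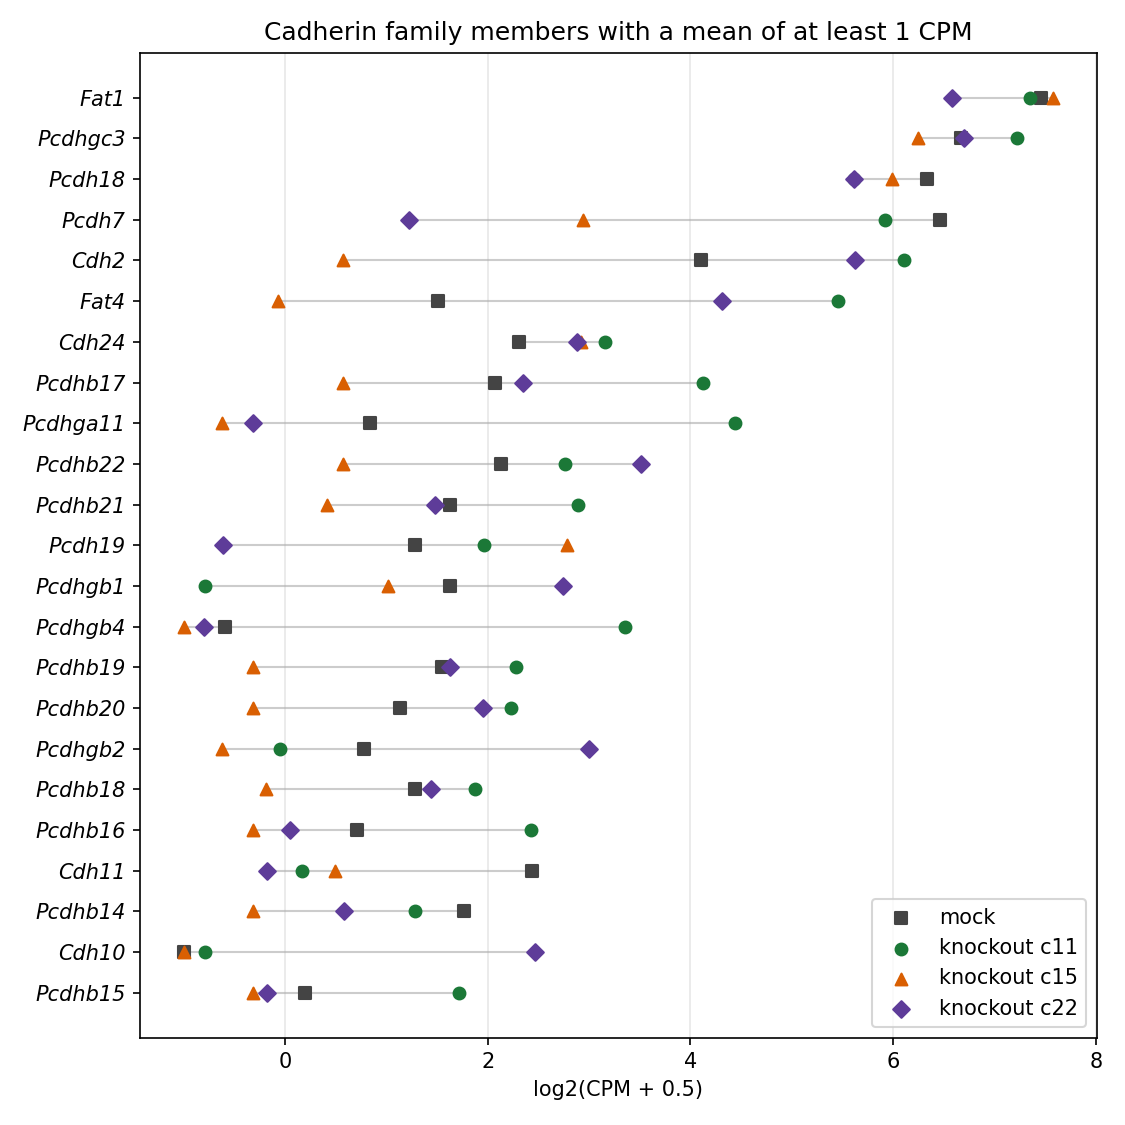
Level of each of the 23 members with a mean of at least 1 CPM, as log2(CPM + 0.5) on the horizontal axis, with 1 point per library (square, mock; circle, c11; triangle, c15; diamond, c22) and a grey line over the range. Fat1, Pcdhgc3, Pcdh18 and Cdh24 have short lines, while Cdh2, Fat4, Pcdh7 and Pcdhga11 have long ones. The c15 point is the lowest in 15 of the 23 genes (26.6% of all genes at that level). Outside the protocadherin clusters it is the lowest in 2 of 9.

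No member passed the test of knockout against mock. edgeR's quasi-likelihood test, adjusted over all genes, called 0 of the 32 members that could be tested, where it called 0% of 15706 genes higher and 0.00637% lower in the knockout libraries. DESeq2 called 0 of the 32 as well, with a background of 0.306% higher and 0.42% lower, and limma-voom also called 0. At an unadjusted edgeR p under 0.05 there were 2 members, Cdh11 and Pcdhga6, both lower, with a background of 2.56% lower and 1.12% higher. The adjusted p was 0.482 for Cdh11, 0.778 for Pcdhga6 and 1.00 for the other 30. The median fitted log2 fold change (knockout minus mock) was 0.39 over the 32 members and 0.05 over all 15706 genes. The median of the members was -0.26 with limma-voom, -0.39 without c11, -0.04 without c22 and 0.80 without c15, so its sign depended on the test and on single libraries. The other 61 members were too low to be tested. The 32 include members that entered only through a library in which they were high.

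The knockout libraries were spread widely among each other. Of the 32 tested members, 10 had a range of at least 8-fold between the highest and the lowest knockout library (CPM with 0.5 added). The background was 2.64% of tested genes, not matched for level. The 10 include Pcdhgb4 and Cdh10, which passed the filter only through c11 and c22 respectively. For such members a wide range follows from how they entered. The median range of the 23 members with a mean of at least 1 CPM was 2.74 on the log2 scale, and it was 0.67 over all 14182 genes at that level. Over the 32 tested members, 8 lay below mock in all 3 knockout libraries, with a background of 22.5% of tested genes, and 1 lay above, with a background of 21%. Of the 23 members, 4 lay below mock in all 3 knockout libraries, with a background of 21.5%, and 1 lay above, with a background of 21.3%. The 4 below mock were Cdh11, Pcdh18, Pcdh7 and Pcdhb14, and the 1 above was Cdh24.

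Cdh11, the osteoblast cadherin (chromosome 8, 102632095 to 102785642, GRCm38, minus strand), was at 4.93 CPM (mock), 0.620 CPM (c11), 0.910 CPM (c15) and 0.382 CPM (c22). All 3 knockout libraries were low and close to each other, and mock stood apart from them. Behind these levels were 61 counts in mock and 8, 12 and 5 counts in the knockout libraries. The mean of the knockout libraries was 0.637 ± 0.264 CPM (SD, n = 3), with a log2 fold change from the fit of -2.93 (SE 0.65), edgeR's adjusted p being 0.482. Markers of fibroblasts, which can express Cdh11, summed to 115 CPM in mock and to 26.5 (c11), 99.98 (c15) and 99.8 CPM (c22). All 6 of them were detected in every library, and 2 of the 6 lay below mock in all 3. AXT cells were made from stromal cells, so whether host or tumour cells carried these markers cannot be told here. Much of the c22 sum was Pdgfra, at 63.8 CPM there and 15.2 CPM in mock, whereas Dcn was at 11.9 CPM in c22 and 45.1 CPM in mock. The osteoblast markers Runx2, Sp7, Ibsp and Dmp1 lay on the same side as Cdh11 in all 3 knockout libraries, Dmp1 at 75.5 CPM in mock and 0.620 to 16.4 CPM in the others (edgeR adjusted p = 1.00) and Ibsp at 56.8 CPM against 14.6 to 48.7 CPM. These were 4 of the 9 osteoblast markers with a mean of at least 1 CPM. Col1a1 went the other way, at 862 CPM in mock and 1093 to 4700 CPM in the others. Alpl, Bglap2, Spp1 and Col1a2 had knockout libraries on both sides of mock. The part of fibroblasts, of osteoblast markers, and of the muscle, erythroid and macrophage markers that were also highest in mock, in the levels of Cdh11 and of the other 3 members below mock was not tested.

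Pcdh18 (chromosome 3, 49743296 to 49757325, minus strand), a delta-2 protocadherin, had 79.9 CPM in mock, against 48.6 (c11), 63.1 (c15) and 48.5 CPM (c22). The knockout libraries stayed within a narrow band below mock, with a mean of 53.4 ± 8.40 CPM (SD, n = 3) and a log2 fold change of -0.58 (SE 0.33). Cdh24 (chromosome 14, 54631231 to 54641364, minus strand), a type II classical cadherin, lay on the other side, at 4.44 CPM (mock), 8.44 CPM (c11), 7.05 CPM (c15) and 6.88 CPM (c22). Its knockout mean was 7.46 ± 0.858 CPM (SD, n = 3) and its log2 fold change 0.75 (SE 0.53). Neither difference passed the test.

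Cdh2 and the clustered genes apart, these 2 are the members with a mean of at least 1 CPM whose knockout libraries all lay on 1 side of mock and whose RefSeq start (GRCm38.p6) fell within 50 bases of the table's gene start. Their 250 bases before that start are shown for that reason, each written 5′ to 3′ along the gene, with matches to the HIF core motif in capitals. The motif was searched as ACGTG or GCGTG on both strands, so that a match on the other strand reads CACGT or CACGC.
Pcdh18, chr3:49757317-49757566, minus strand: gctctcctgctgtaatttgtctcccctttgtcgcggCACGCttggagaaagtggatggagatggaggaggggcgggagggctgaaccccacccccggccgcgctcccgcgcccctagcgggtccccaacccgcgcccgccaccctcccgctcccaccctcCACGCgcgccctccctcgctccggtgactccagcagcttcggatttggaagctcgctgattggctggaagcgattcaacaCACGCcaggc
Cdh24, chr14:54641365-54641614, minus strand: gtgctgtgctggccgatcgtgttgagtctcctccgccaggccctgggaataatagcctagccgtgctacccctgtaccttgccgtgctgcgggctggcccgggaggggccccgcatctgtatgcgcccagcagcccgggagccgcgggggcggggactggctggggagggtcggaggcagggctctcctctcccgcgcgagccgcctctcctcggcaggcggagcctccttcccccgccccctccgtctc

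The Pcdh18 promoter held 3 matches, starting at positions -214, -90 and -10 from the RefSeq start, and the Cdh24 promoter held 0. Of the 8 members with a mean of at least 1 CPM that are neither Cdh2 nor clustered, 7 had a promoter entry (Cdh11 had none), and Pcdh18 was the 1 with a HIF core match. Over all 32851 promoters in the RefSeq table, 38.6% held at least 1 match in the same length. The E-box CACCTG, a sequence known to be bound by the Snail and Zeb repressors of Cdh1, was found in 1 of the 7, Fat1, and in 17.2% of all promoters. Some of the 7 RefSeq starts lay away from the table's gene start: by 14761 bases for Fat1, 1382 for Cdh10 and 114 for Pcdh7. A match is a run of letters and was not tested as a binding site.

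Pcdh7 (chromosome 5, 57717967 to 58133230, plus strand), a delta-1 protocadherin, was at 87.7 CPM in mock, against 60.3 (c11), 7.20 (c15) and 1.83 CPM (c22). It was nearest to mock in c11 and far lower in c15 and c22. Relative to mock the ratio was 0.687 in c11 (exact 95% counting interval 0.626 to 0.754), 0.0821 in c15 (0.0659 to 0.101) and 0.0209 in c22 (0.0134 to 0.0313). The fitted log2 fold change of -1.94 had an SE of 1.39, and edgeR's adjusted p was 1.00.

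Cdh2, which encodes N-cadherin (chromosome 18, 16588877 to 16809246, minus strand), had 16.7 CPM (mock), 68.3 CPM (c11), 0.985 CPM (c15) and 48.8 CPM (c22). The libraries c11 and c22 were above mock and c15 was far below it, with 13 counts against 207 in mock. Fat4 (chromosome 3, 38886940 to 39011985, plus strand) followed the same order of libraries. It was at 2.34 CPM in mock, against 43.4 (c11), 0.455 (c15) and 19.4 CPM (c22). Relative to mock, Fat4 was 18.5-fold in c11 (interval 12.8 to 27.9) and 8.29-fold in c22 (5.63 to 12.6), and its ratio in c15 was 0.194 (0.0659 to 0.476). These intervals cover counting error only and compare single libraries. Fitted log2 fold changes were 1.24 (SE 1.67) for Cdh2 and 3.16 (SE 2.05) for Fat4, each with an edgeR adjusted p of 1.00, and limma-voom gave Cdh2 the other sign (-0.16).

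Fat1, a giant cadherin with a broad tissue distribution (chromosome 8, 44935447 to 45052257, plus strand), was the member with the most counts. Its level was 176 CPM (mock), 163 CPM (c11), 191 CPM (c15) and 95.3 CPM (c22). The lowest library, c22, had a ratio to mock of 0.542 (interval 0.505 to 0.582). The log2 fold change was -0.23 (SE 0.43), and 0.01 without c22. Fat2 had 1 count in all and Fat3 had 0.

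**Figure D2:**
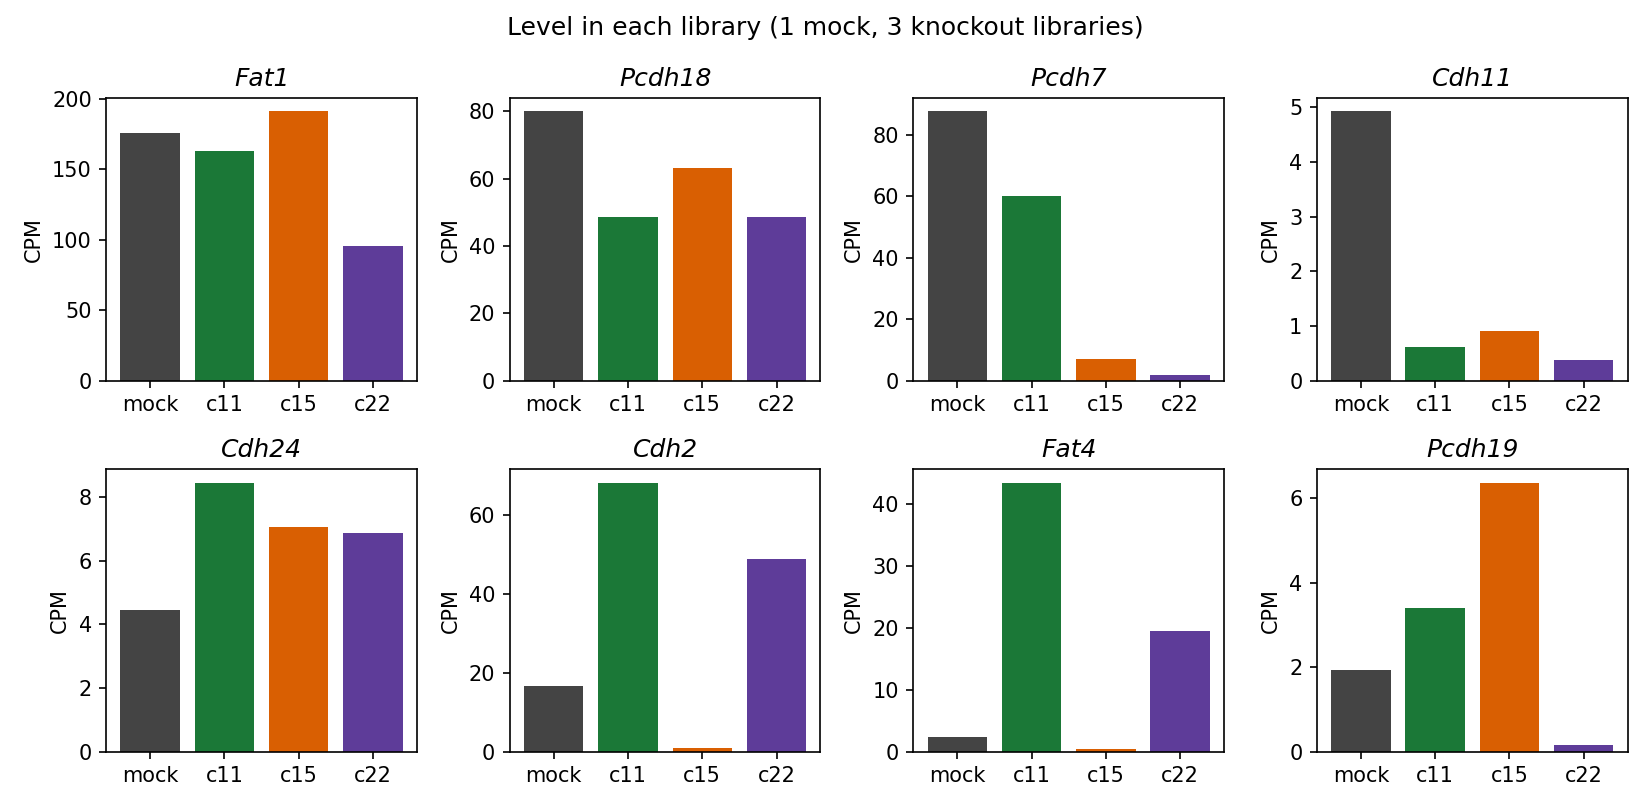
Level in CPM (vertical axis, from 0) of 8 members in mock and in the knockout libraries c11, c15 and c22, 1 bar per library. Cdh11 and Pcdh18 are lower and Cdh24 is higher than mock in all 3 knockout libraries, while Cdh2 and Fat4 are high in c11 and c22 and close to 0 in c15.

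The remaining single genes were low and belonged to 1 or a few libraries. Pcdh19 (chromosome X, 133582860 to 133688987, minus strand), a delta-2 protocadherin, was at 1.94 CPM in mock, against 3.41 (c11), 6.37 (c15) and 0.153 CPM (c22). It was highest in c15, the library in which Cdh2 was lowest. Cdh10 (chromosome 15, 18818947 to 19014236, plus strand), a type II cadherin of the nervous system, had 66 counts in c22 (5.05 CPM), 1 count in c11 and 0 in mock and c15. With 3 counts taken as the floor of the mock library, the c22 level was 20.8-fold that floor, the counting error of the 66 counts left out. Pcdh10, a further delta-2 protocadherin, had 12 counts in c11, 3 in c22 and 0 in mock and c15. Pcdh15, known from hair cells of the inner ear, had 27 counts (mock), 2 (c11), 20 (c15) and 0 (c22).

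Classical cadherins of other cell types were scarce. Cdh1, the epithelial E-cadherin, had 1 count in c11, 1 in c22 and 0 elsewhere, and epithelial markers summed to 1.45 CPM in mock and to 0.232 to 0.682 CPM in the knockout libraries. Cdh5, the endothelial VE-cadherin, had 5 counts (mock), 0 (c11), 3 (c15) and 2 (c22). Cdh15, the M-cadherin of muscle, had 19 counts (mock), 10 (c11), 3 (c15) and 14 (c22). Markers of muscle and endothelium were higher in mock in sum, but not each of them was. Of the endothelial markers, Erg, Tek and Kdr lay below mock in all 3 knockout libraries, whereas Egfl7 was highest in c11. Kdr was below mock in c11 by depth alone, with 10 counts in each. Pecam1 had 5 counts (mock), 0 (c11), 3 (c15) and 7 (c22). Of the muscle markers, Des was highest in c22. The part of either cell type in the counts of Cdh5 and Cdh15 was not tested.

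The clustered protocadherins lie side by side on chromosome 18 (GRCm38), with the alpha cluster at 36930184 to 37187661, the beta cluster at 37264938 to 37524479 and the gamma cluster at 37661793 to 37841873. They made up 55 of the 93 members. The numbered alpha genes were almost silent: 10 of the 12 had 0 counts everywhere, and the others, 1 of the Pcdha11 IDs and Pcdha12, had 5 counts in all. The C-type gene Pcdhac2 of the same cluster, which is outside the 93, had 59 to 177 counts. Of the 93 members, 45 share exon bases with another gene in GENCODE M21, among them the gamma genes with their constant exons. How reads in shared bases were counted is not given in the sources used here.

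In the beta cluster the position of a gene went with its level. All 9 genes from Pcdhb14 to Pcdhb22, at the end of the cluster nearest to the gamma genes, had a mean of at least 1 CPM, from 1.03 CPM for Pcdhb15 to 6.54 CPM for Pcdhb17. None of the 13 genes from Pcdhb1 to Pcdhb13 had a mean above 0.213 CPM, and the highest value of any of them in any library was 0.465 CPM. This boundary was seen in the data and carries no test.

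Summed over Pcdhb14 to Pcdhb22, the level was 20.9 CPM (mock), 51.4 CPM (c11), 4.70 CPM (c15) and 27.9 CPM (c22). c15 was the lowest library for all 9 genes and c11 the highest for 7 of them. Over the 23 members with a mean of at least 1 CPM, c15 was lowest in 15 (background 26.6% of genes) and c11 highest in 13 (background 26.3%). This did not hold outside the clusters. Of the 9 members there, c15 was lowest in 2 and c11 highest in 3, while c22 was lowest in 5 (background 30.9%). Neighbouring genes of 1 cluster are not independent of each other, so these counts describe the libraries and are no test of the list.

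Pcdhb17 was at 3.71 CPM in mock, against 16.9 (c11), 0.985 (c15) and 4.59 CPM (c22). It stood out in c11, where it held 31.8% of the beta counts (exact 95% binomial interval 28.3 to 35.5), against 16.1% in mock (12.02 to 20.9). Pcdhb22 was at 3.88 CPM (mock), 6.27 CPM (c11), 0.985 CPM (c15) and 10.9 CPM (c22). In c22 it led the cluster with 38.2% of the beta counts (33.3 to 43.4), where mock had 16.8% (12.6 to 21.6). Pcdhb14 was at 2.91, 1.94, 0.303 and 0.994 CPM in mock, c11, c15 and c22, and it was the 1 beta gene of this level with all knockout libraries below mock (log2 fold change -1.43, SE 0.86). The other 6, Pcdhb15, Pcdhb16, Pcdhb18, Pcdhb19, Pcdhb20 and Pcdhb21, had log2 fold changes from -0.01 to 0.82, with SEs from 1.04 to 1.61, and their knockout libraries lay on both sides of mock.

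**Figure D3:**
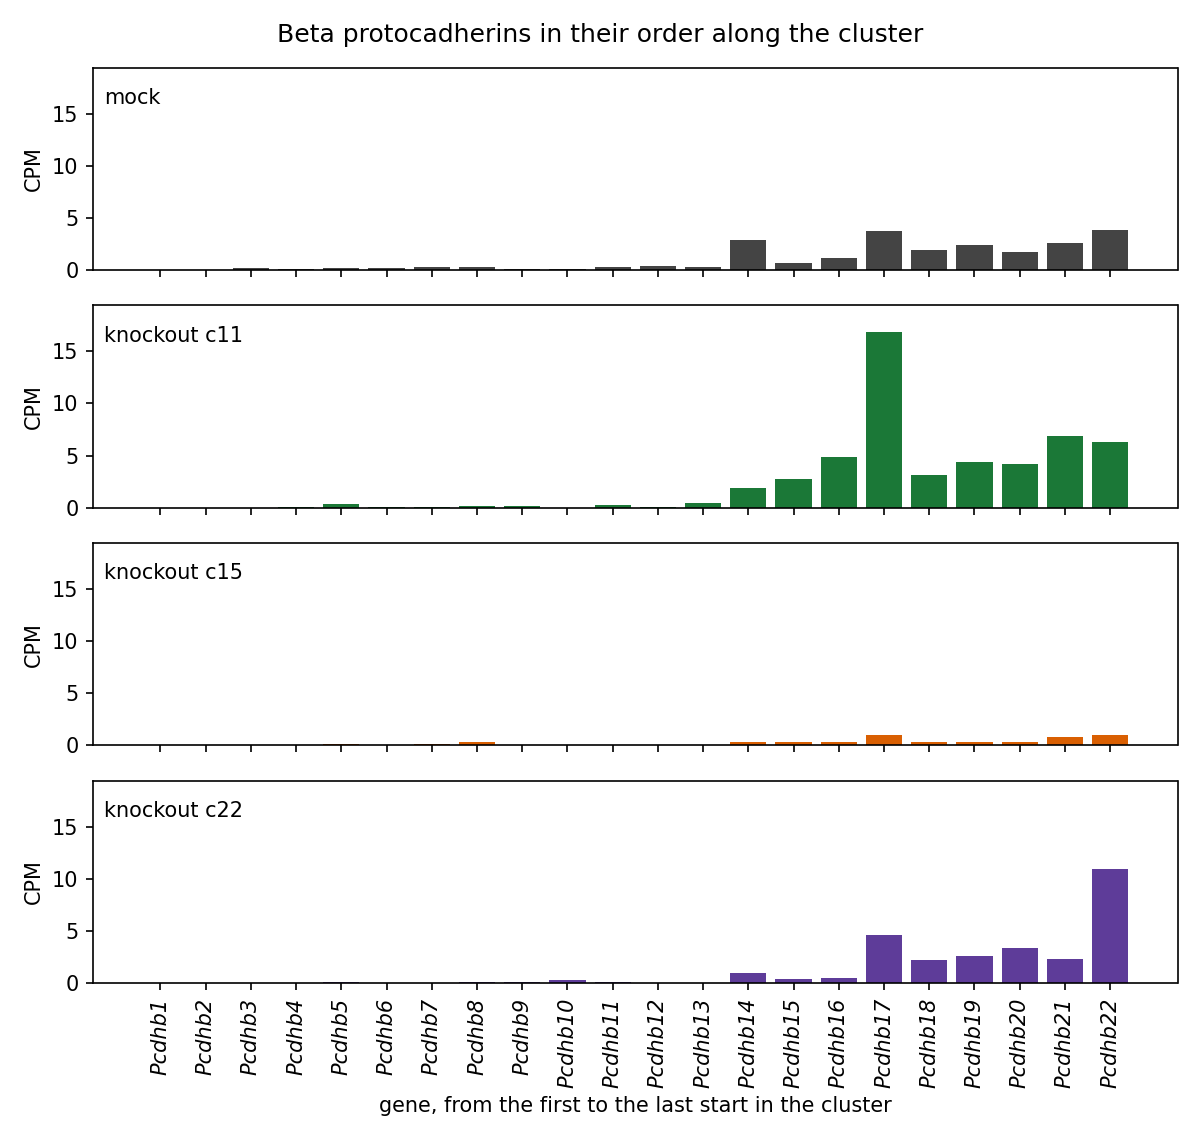
Level in CPM (vertical axis, the same from 0 in each panel) of the 22 beta protocadherins in their order along the cluster, with 1 panel for mock and 1 for each knockout library. Counts begin to build up at Pcdhb14 in mock, c11 and c22, with Pcdhb17 leading in c11 and Pcdhb22 in c22, and all bars of c15 are under 1 CPM.

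In the gamma cluster the leading genes were not the same in every library. Its C-type gene Pcdhgc3 had a log2 range among the knockout libraries of 0.98, where the A and B genes of at least 1 CPM had 3.53 to 5.06, and it was at 101 CPM in mock, against 149 (c11), 75.3 (c15) and 104 CPM (c22) (log2 fold change 0.11, SE 0.44, and -0.16 without c11). Some of these A and B genes reached a mean of 1 CPM only through a library in which they were high. The other C-type genes, Pcdhgc4 and Pcdhgc5, had at most 6 counts in any library. Per kilobase of exon that belongs to no other gene, Pcdhgc3 stood at 55.7 CPM in mock, where Pcdh18 stood at 14.9 CPM, Fat1 at 11.6 CPM, Pcdh7 at 10.5 CPM and Cdh2 at 2.07 CPM. On that scale it was the highest of these 5 genes in every library, with 41.3 CPM per kilobase as its lowest value. The scale assumes that shared bases were not counted, which the sources used here do not state.

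The 18 A and B type gamma genes held 112 counts (mock), 476 (c11), 33 (c15) and 245 (c22). Pcdhga11 was at 1.29 CPM (mock), 21.2 CPM (c11), 0.152 CPM (c15) and 0.306 CPM (c22). It stood far above the rest in c11 alone, with 57.6% of the A and B counts there (53.0 to 62.0). Pcdhgb4 had 2 counts (mock), 126 (c11), 0 (c15) and 1 (c22). It was therefore at 9.76 CPM in c11 and near the counting floor elsewhere, and its ratio of c11 to mock was 60.4, with an interval of 16.4 to 504.

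In c22 the leading A and B genes were Pcdhgb2 and Pcdhgb1. Pcdhgb2 was at 1.21 CPM in mock, against 0.465 (c11), 0.152 (c15) and 7.49 CPM (c22), where it held 40.0% of the A and B counts (33.8 to 46.4). Pcdhgb1 was at 2.58 CPM (mock), 0.0775 CPM (c11), 1.52 CPM (c15) and 6.19 CPM (c22). It led in mock with 28.6% (20.4 to 37.9) and in c15 with 60.6% (42.1 to 77.1), though on 20 counts there. Of the 18 genes, 7 had over 3 counts in mock, 8 did in c11, 8 in c22 and 1 in c15. Pcdhga6 had 15 counts (mock), 3 (c11), 0 (c15) and 1 (c22) (log2 fold change -3.45, SE 1.12, edgeR adjusted p = 0.778).

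The leading genes of c11 and c22 also lay in different stretches of the cluster. The first 6 A and B genes, from Pcdhga1 to Pcdhgb2, held 89.8% of the A and B counts in c22 (exact 95% binomial interval 85.3 to 93.3) and 3.15% in c11 (1.77 to 5.14). In mock the share was 51.8% (42.1 to 61.3), between those of c11 and c22, and in c15 it was 75.8% (57.7 to 88.9). The split after Pcdhgb2 was chosen after the values were seen. Among low genes of the same stretches, Pcdhga1 had 10 counts in c22, 2 in c11 and 0 in mock and c15, and Pcdhgb5 had 10 counts in c11, 3 in mock and 0 in c15 and c22.

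**Figure D4:**
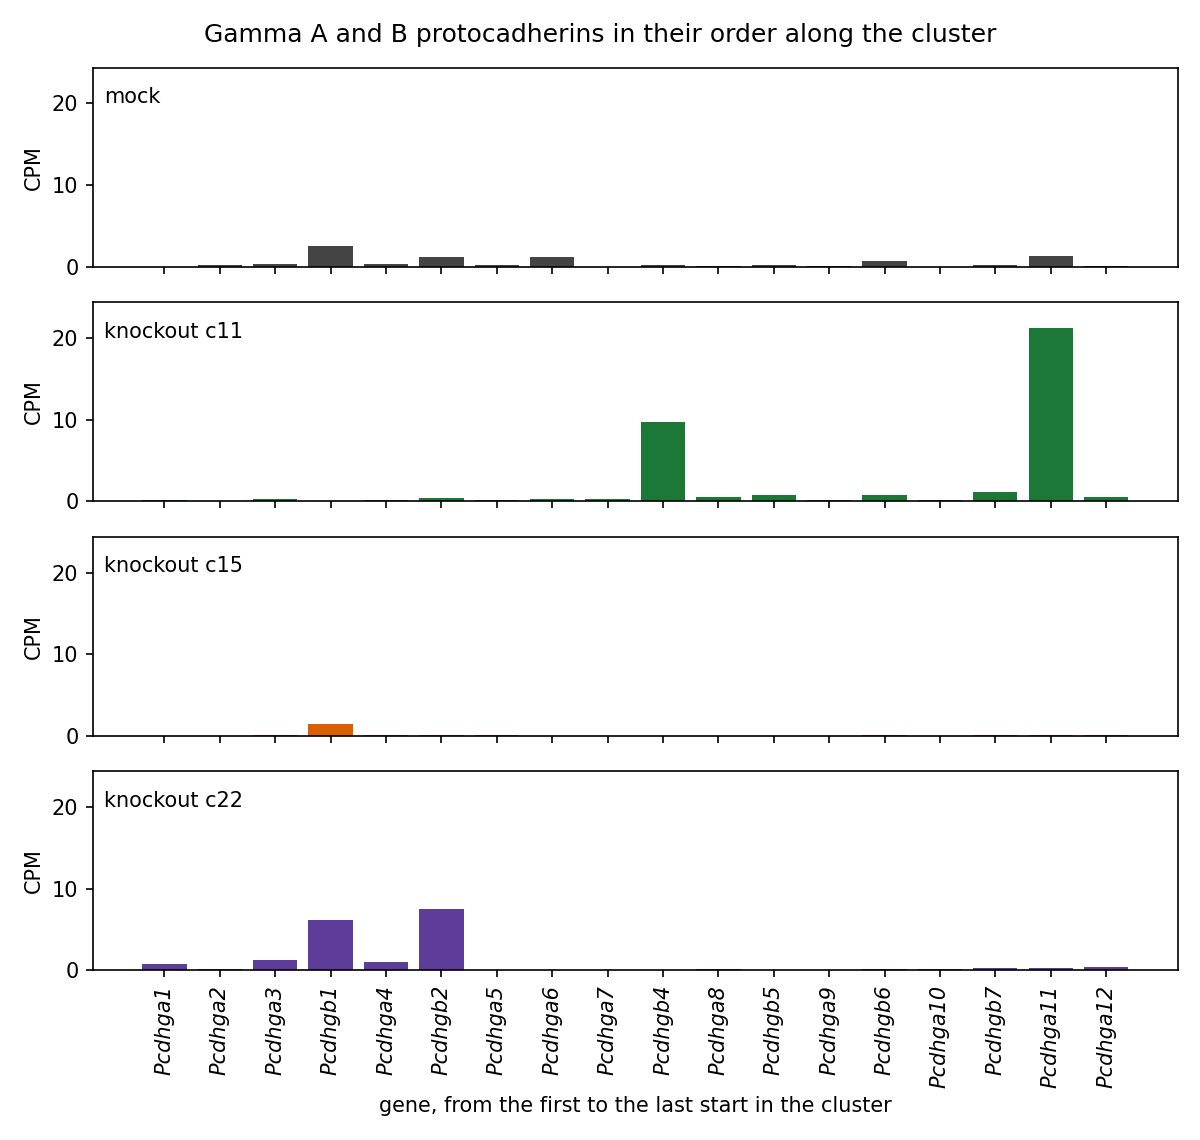
Level in CPM (vertical axis, the same from 0 in each panel) of the 18 gamma A and B protocadherins in their order along the cluster, with 1 panel for mock and 1 for each knockout library. Pcdhgb4 and Pcdhga11 tower in c11, Pcdhgb1 and Pcdhgb2 in c22, Pcdhgb1 is the 1 visible bar in c15, and mock shows several low bars.

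Partners and regulators of cadherins gave no call either. Of 13 catenins and junction adaptors, 10 were tested and 0 passed edgeR or DESeq2 (median log2 fold change -0.01). Ctnnb1, the gene of beta-catenin, was at 1521 CPM in mock, against 859 (c11), 1156 (c15) and 854 CPM (c22) (log2 fold change -0.67, SE 0.30). Ctnna1, the alpha-catenin gene, lay above mock in all 3, at 173 CPM in mock, against 282 (c11), 189 (c15) and 261 CPM (c22) (log2 fold change 0.50, SE 0.35). Arvcf had a log2 fold change of 0.29 (SE 0.65) and Jup, the plakoglobin gene, one of -1.10 (SE 1.06). Plekha7, an adaptor of the p120-catenin complex, was the 1 gene of that list with an unadjusted edgeR p under 0.05 (background 2.56% lower and 1.12% higher), on 20 counts in mock and 1, 2 and 1 in the knockout libraries (adjusted p = 0.255), and is named after its values were seen.

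Transcription factors known from cadherin switching were tested in 9 of 11 cases, and 0 passed edgeR or DESeq2 (median 0.07). Twist2 was at 7.59 CPM in mock, against 28.3 (c11), 27.7 (c15) and 10.9 CPM (c22) (log2 fold change 1.55, SE 0.69), and Snai1 at 13.2 CPM against 22.5, 21.2 and 17.1 CPM (0.63, SE 0.41). Prrx1 was at 822 CPM in mock, against 394 (c11), 542 (c15) and 185 CPM (c22) (-1.14, SE 0.54), and Zeb2 at 123 CPM against 96.0, 90.4 and 49.4 CPM (-0.65, SE 0.43). Ovol1 had 13 counts in mock, 3 in c11 and 0 in both others, and was the 1 of the list with an unadjusted p under 0.05 (background 2.56% lower), at an edgeR adjusted p of 1.00.

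Other genes of the cadherin superfamily, listed together with Fjx1, which is not a cadherin gene, were tested in 8 of 27 cases, and 0 passed edgeR or DESeq2 (median -0.39). Pcdhac2, the C-type gene at the end of the alpha cluster, was at 14.3 CPM (mock), 6.04 CPM (c11), 10.1 CPM (c15) and 4.51 CPM (c22) (log2 fold change -1.05, SE 0.56). Fjx1, a kinase gene of the Fat and Dachsous system, was at 28.2 CPM in mock, against 11.9 (c11), 6.75 (c15) and 4.51 CPM (c22) (-1.87, SE 0.55, edgeR adjusted p = 0.841), the 1 of the list with an unadjusted p under 0.05 (background 2.56% lower). Celsr2 was at 16.9 CPM in mock, against 6.97 (c11), 17.1 (c15) and 1.99 CPM (c22). Clstn3 was at 19.7 CPM in mock, against 0.465 (c11), 37.2 (c15) and 0.688 CPM (c22), low where Cdh2 and Fat4 were high. Clstn1, a calsyntenin gene, had a log2 fold change of 0.48 (SE 0.40), and Dchs1, the partner of Fat4, one of 0.14 (SE 0.69), at 2.14 to 4.88 CPM.

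Genes that shed or cut cadherins were tested in 10 of 11 cases, with 0 passing edgeR or DESeq2, 0 at an unadjusted edgeR p under 0.05 and a median of 0.05. Ncstn of gamma-secretase had a log2 fold change of 0.50 (SE 0.52), Adam15 one of -0.29 (SE 0.29) and Psen2 one of -0.62 (SE 0.40). All 12 regulators of the clustered protocadherins were tested, 0 passed edgeR or DESeq2, 0 had an unadjusted edgeR p under 0.05 and their median was -0.08. Ctcf, whose protein binds at these promoters, was at 112 CPM in mock and 97.5 to 105 CPM in the others, and Smchd1, a silencer of the clusters, was at 139 CPM against 133, 170 and 144 CPM. Dnmt1 had a log2 fold change of -0.40 (SE 0.39) and Stag1 one of -0.32 (SE 0.37), Wapl one of 0.16 (SE 0.34) and Nipbl one of 0.11 (SE 0.36). Nectins, adhesion proteins beside cadherins, were tested in 4 of 4 cases, again with 0 by each of these 3 counts, and Nectin2 had a log2 fold change of 0.57 (SE 0.56) and Nectin3 one of 0.17 (SE 0.45).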

How the data were processed

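Poly(A) RNA of 4 tumours was sequenced from directional libraries, per the labels' protocols. The authors deposited raw read counts per Ensembl gene. The submitters' processing notes name the build GRCm38, the aligner HISAT2 2.1.0 and the counter featureCounts 1.6.3, beside Trimmomatic 0.38, FastQC 0.11.7 and SAMtools 1.9. The settings for strand and for reads shared by genes are not given in the sources used here. The members and lists were chosen with earlier results of these data known.

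CPM is a gene's share of its library's total count, times 1000000, and ± is the SD over the knockout libraries. Genes kept by filterByExpr (15706, 99.9% of counts) were scaled by TMM, with factors from 0.985 to 1.014, and tested 2-sided with edgeR 4.0.16 in R 4.3.3 (quasi-likelihood, robust, Benjamini-Hochberg, threshold 0.05). SEs come from the F statistic. The mock library has no replicate and was assumed to vary as the knockout libraries do, on 2 residual degrees of freedom. Whether each tumour had its own animal is not in the labels, and p-values therefore describe only how far these libraries scatter, which may be technical. Alternatives were DESeq2 1.42.0, limma-voom 3.58.1, RLE and upper quartile scaling, other filters and leaving out each knockout library. The test was also run on simulated data in which all genes shared the same spread. Genes of differing spread were not covered. Named were members with a mean of at least 1 CPM, members with 10 or more counts in 1 library and 0 in another, and of each pathway list genes past the test and the 2 highest and 2 lowest log2 fold changes among genes of at least 1 CPM. 1 gene that the rule picks is not reported here. Others were named after their values were seen. All 93 members had identical coordinates and symbols in GENCODE M21, and 26 had a RefSeq promoter entry. The chi-square per gene between any pair of libraries was at least 44.3, far beyond sampling noise.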

Additional observations from a re-analysis of the deposited data

How the results depend on the processing

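No member passed under any of the 10 alternatives, which included the earlier (legacy) form of edgeR's fit, chosen after seeing the data. Genes called over the whole table numbered 1 in the main test, 114 with DESeq2, 0 with limma-voom, 0 with the legacy fit, 4 with no filter and 0 to 0 when single knockout libraries were left out. The cause of these differences was not tested. The median log2 fold change of tested members ran from -0.39 (without c11) to 0.80 (without c15) over the left-out libraries. Some named members of the main test failed the filter of an alternative and gave no value there. They were Pcdhgb4, Pcdhb15 and Pcdh10 without c11, and Cdh10 and Pcdh10 without c22. With the filter at a mean of at least 1 CPM they were Pcdh15, Pcdhga6 and Pcdh10. Of the 252 fitted values of named members that remained under an alternative, 231 kept their direction and 21 changed it, none of them called. With limma-voom these were Cdh2 (-0.16), Pcdhga11 (-0.25), Pcdhb21 (-0.12), Pcdh19 (-0.27), Pcdhgb1 (-1.34), Pcdhb20 (-0.035), Pcdhgb2 (-0.49) and Pcdhb16 (-0.24), and with upper quartile scaling Pcdhgb1 (-0.0016). Leaving out single knockout libraries gave ranges across 0 for Fat1 (-0.45 to 0.0051), Pcdhgc3 (-0.16 to 0.31), Pcdhb16 (-1.39 to 1.24), Pcdhb17 (-0.39 to 1.51), Pcdhb18 (-0.55 to 0.47), Pcdhb19 (-0.71 to 0.51), Pcdhb21 (-0.70 to 0.82), Pcdhb22 (-0.11 to 1.16), Pcdhga11 (-2.43 to 3.02), Pcdhgb1 (-1.68 to 0.60), Pcdhgb2 (-1.95 to 1.73) and Pcdh19 (-0.14 to 1.33). No paired analysis was possible because there is 1 mock library and the knockout columns carry no replicate number. Depth limits the low members: Cdh11 rests on 61 counts in mock and 5 to 12 in the knockout libraries.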

Other observations

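The genes beside the protocadherin clusters were read for comparison, a choice made after the cluster values were seen. Within 500 kb of the clusters on chromosome 18, 23 protein-coding genes outside the family had a mean of at least 1 CPM. Their median range among the knockout libraries was 0.63 on the log2 scale (CPM with 0.5 added). c15 was the lowest library in 9 of the 23 (background 26.6% of genes) and the highest in 7 (background 25.5%). c22 was the highest in 10 (background 26.7%) and the lowest in 5 (background 30.9%). From Taf7 to the end of the window, Taf7, Hdac3, Rell2, Fchsd1, Arap3 and Dele1 were lowest in c15 and highest in c22. Of the others there, Diaph1 was highest in c15, and Rnf14 and Gnpda1 were highest in c11 and lowest in mock. Before the alpha cluster, Tmco6 and Ndufa2 were likewise lowest in c15 and highest in c22. Whether these genes and the clusters vary together was not tested. Taf7, which lies between the beta and gamma clusters and encodes a subunit of TFIID, was at 7.99 CPM (mock), 10.8 CPM (c11), 5.00 CPM (c15) and 12.4 CPM (c22). Diaph1, the formin gene that follows the gamma cluster, was at 72.5 CPM in mock, against 70.6 (c11), 103 (c15) and 65.1 CPM (c22). Zmat2, a splicing factor gene before the alpha cluster, was at 76.6 CPM in mock, against 68.5 (c11), 65.1 (c15) and 66.0 CPM (c22). Hbegf, a growth factor gene, had the widest range of the 23, with 7.43 CPM (mock), 6.97 CPM (c11), 19.5 CPM (c15) and 2.68 CPM (c22).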
